A study of Homo sapiens with 12 samples.

Results

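The glycolysis and hypoxia genes described here are 37 human genes chosen by name: the enzymes from glucose 6-phosphate to lactate, and regulators and targets of the hypoxia-inducible factors (HIF). The array annotation held a probe set with a single gene symbol for 34 of the 37, among 11963 genes measured in all. SLC16A3, CA9 and ANKRD37 had none and were not analysed here. Of the 34 measured genes, 15 encode glycolytic enzymes and 19 are other members. Where a gene had several probe sets, the one with the highest mean over all arrays was used.

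RNA came from MDA-MB-231, a breast cancer line with triple-negative and mesenchymal features, and was hybridised to 12 arrays. A short hairpin RNA (shRNA) was brought into the cells with lentivirus, in 4 groups of 3 biological replicates: HDAC5 shRNA with its scramble shRNA control, which carries no tag in the labels, and LSD1 shRNA with a scramble control tagged LSD1. The class IIa deacetylase HDAC5 and the lysine demethylase LSD1, the product of KDM1A, both act on histones. All 4 groups therefore share the cell line and a viral shRNA. The labels give ordinary culture conditions and name no hypoxic treatment, and they give neither the number of hairpins nor what separates the replicates, so p-values measure only the spread between these samples.

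Glycolysis turns glucose into pyruvate and, through lactate dehydrogenase, into lactate, and many breast cancer lines run it at a high rate even in oxygen. HIF consists of an oxygen-regulated alpha subunit (HIF1A or EPAS1) and a constant partner (ARNT). In oxygen the prolyl hydroxylase EGLN1 marks the alpha subunit for destruction, so its activity is set largely at the level of protein, which arrays do not measure. When the alpha subunit is stable, the pair binds short hypoxia response elements and raises transcription of glycolytic enzymes, pyruvate dehydrogenase kinases, mitophagy receptors and collagen hydroxylases.

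Values are log2 signals, as deposited by the authors. Changes are the shRNA mean minus the scramble mean on that scale, with limma's standard error (SE). A gene is said to have risen or fallen only at a limma p under 0.05 after Benjamini-Hochberg adjustment over all 11963 genes. Both targeted genes were lower where they were targeted: HDAC5 averaged 6.29 ± 0.18 with HDAC5 shRNA and 7.40 ± 0.17 with its scramble, and KDM1A averaged 6.63 ± 0.17 with LSD1 shRNA and 9.72 ± 0.091 with its scramble (SD, n = 3 each). All 8 markers of a mesenchymal basal-like line were above the median level, against 3 of 8 luminal, 0 of 5 measured blood and 1 of 6 fibroblast or endothelial markers. PTPRC, which defines white blood cells, was below the lower quartile of probe sets on every array, and so was PGR of the luminal markers. Array medians were 6.59 to 6.65 in the HDAC5 experiment and 7.05 to 7.16 in the LSD1 experiment. Between 781 and 1300 probe sets had the same value on any 2 arrays of an experiment and 0 did across experiments, so levels were not compared across experiments. In bulk RNA, fewer cells expressing a gene and less RNA per cell cannot be told apart.

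With HDAC5 shRNA 7 of the 15 glycolytic enzymes rose, PKM, PGAM1 and LDHA by the largest steps, and PFKP and ALDOC fell. Of the 12 HIF targets outside the enzymes and flux regulators 6 fell and 2 rose, and both HIF alpha subunits fell. In all, 21 of the 34 genes passed the test, 10 up and 11 down. Across all genes measured, 44.5% passed, 21.3% up and 23.2% down, so a large number of calls is a property of the whole comparison. Many members are bright probe sets, whose arrays repeat closely. Of the 21 members with a mean of at least 10, 15 passed (71.4%), and 68.9% of all genes that bright did so, which leaves the members' share near that background. Of all 19 other members 3 rose and 9 fell, and the difference between them and the enzymes was not tested. The median change was 0.074 over the enzymes and -0.13 over the other members, beside -0.017 over all genes.

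**Figure D1:**
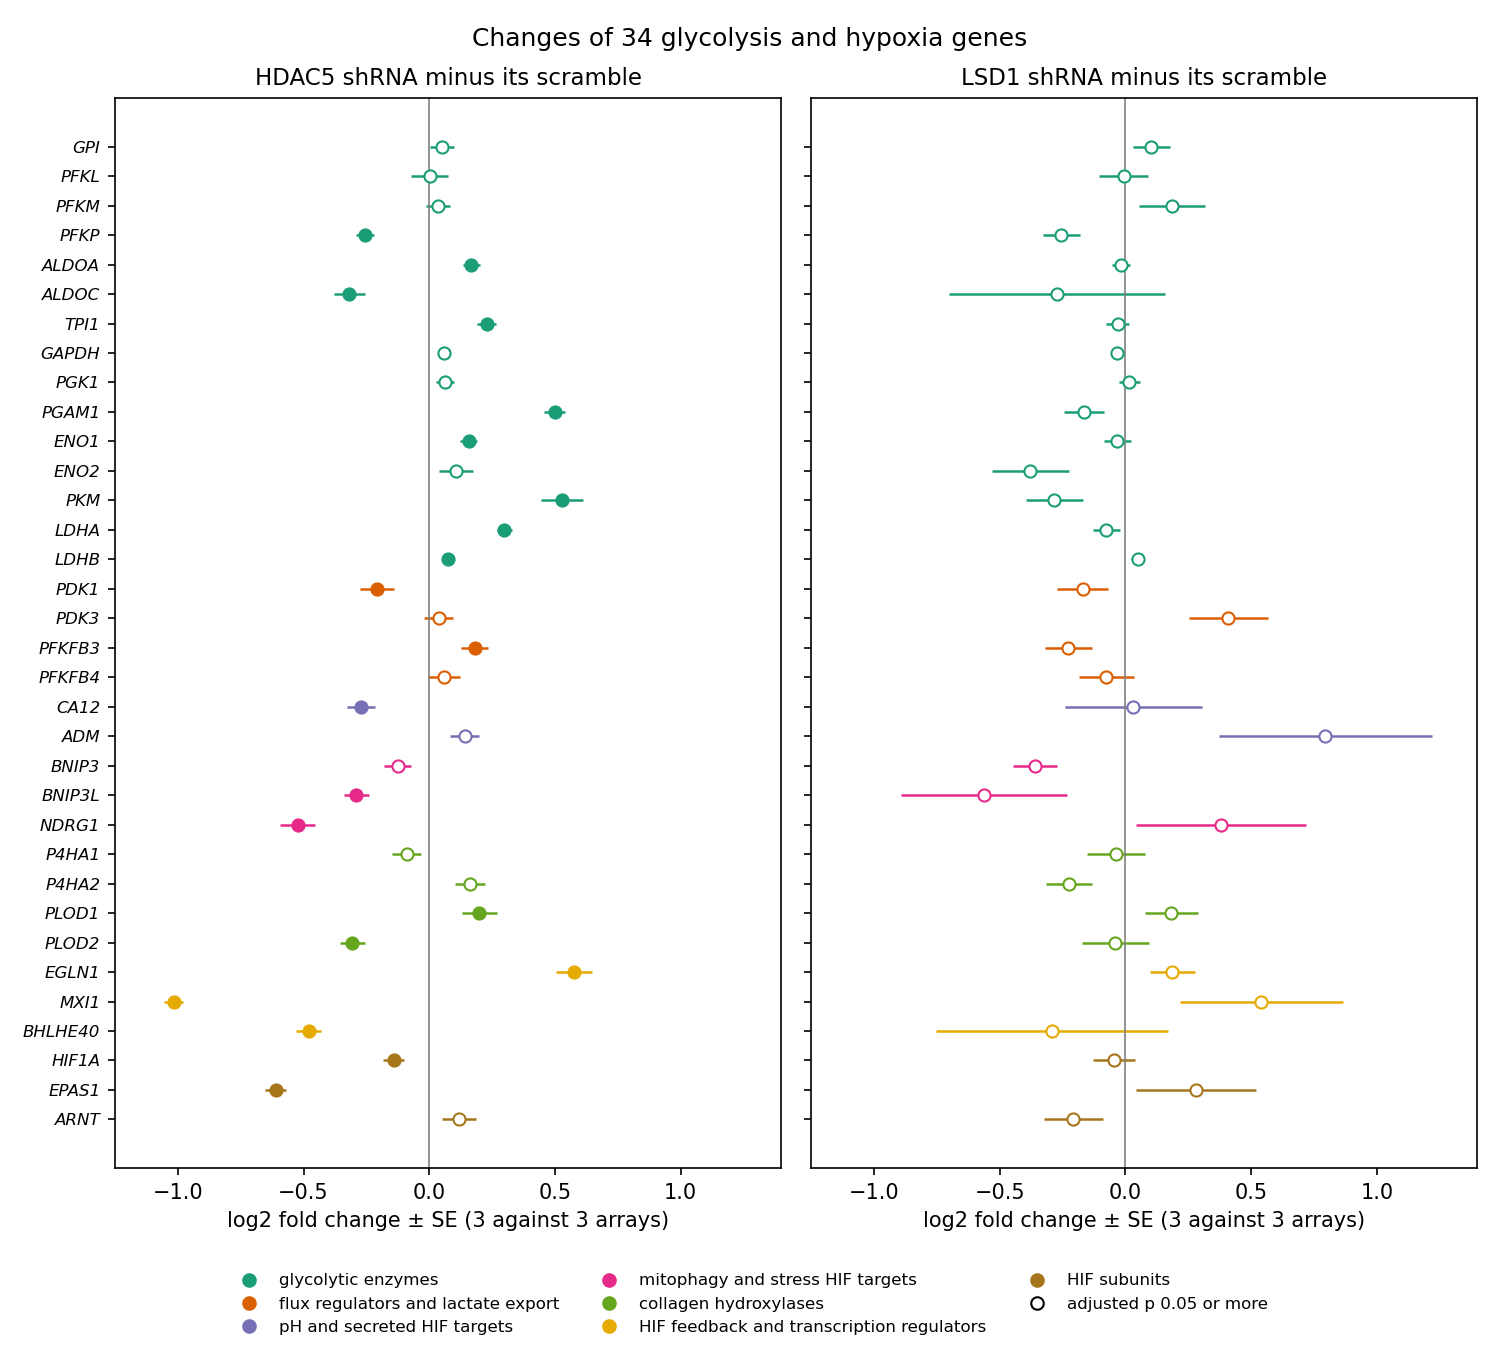
Log2 change (x axis, shRNA minus scramble, with its standard error) of the 34 measured genes, grouped by role down the page, with HDAC5 shRNA in the left panel and LSD1 shRNA in the right. Filled points passed the test: 21 genes with HDAC5 shRNA and 0 with LSD1 shRNA, where the error bars of many HIF targets are several times longer.

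Among the enzymes that rose, PKM makes pyruvate and ATP in the last step of glycolysis. Its signal was 10.75, 10.90 and 10.65 on the 3 HDAC5 shRNA arrays, against 10.42, 10.20 and 10.10 on the scramble arrays. The groups did not overlap, and PKM rose by 0.53 (SE 0.084, limma adjusted p = 0.00048), a 1.44-fold difference. PGAM1, which moves the phosphate of 3-phosphoglycerate, had 12.74, 12.79 and 12.85 with HDAC5 shRNA and 12.36, 12.29 and 12.23 with scramble. Every shRNA array was above every scramble array, and the change was 0.50 (SE 0.040, limma adjusted p = 4.39e-06).

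LDHA, which reduces pyruvate to lactate, read 13.29, 13.37 and 13.33 with HDAC5 shRNA against 13.06, 12.99 and 13.04 with scramble. It rose by 0.30 (SE 0.030, limma adjusted p = 2.13e-05) with no overlap. Array maxima were 14.15 to 14.22, so LDHA lies near the top of the range, where differences can be understated. The aldolase ALDOA, the isomerase TPI1 and the enolase ENO1 rose by 0.17, 0.23 and 0.16 (limma adjusted p = 0.00232, 0.000596 and 0.0029). LDHB, the lactate dehydrogenase subunit that favours the return to pyruvate, rose by 0.074 (limma adjusted p = 0.0243). These are small steps: outside PKM and PGAM1, no enzyme that rose exceeded 1.23-fold.

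The 2 enzymes that fell were PFKP, the platelet form of phosphofructokinase, and ALDOC, the brain form of aldolase. PFKP averaged 11.96 ± 0.029 with HDAC5 shRNA and 12.22 ± 0.058 with scramble (SD, n = 3 each), a change of -0.26 (limma adjusted p = 0.000222). ALDOC fell by 0.32 on the log2 scale (SE 0.062, limma adjusted p = 0.00173), with 9.22, 9.36 and 9.32 on the HDAC5 shRNA arrays and 9.72, 9.61 and 9.52 on the scramble arrays. The paralogs of these enzymes did not move as one: ALDOA rose and ALDOC fell, while PFKP fell and the muscle and liver forms PFKM and PFKL changed by 0.035 and 0.0014 without passing.

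GAPDH, the oxidising enzyme of mid-glycolysis that is often used as a loading control, read 13.78, 13.73 and 13.78 with HDAC5 shRNA and 13.71, 13.73 and 13.68 with scramble. Its change of 0.058 did not pass (SE 0.025, limma adjusted p = 0.0872), although every shRNA array was above every scramble array, by a narrow margin. The array's 3 GAPDH control probe sets differed by 0.063, 0.080 and 0.088 in the same direction, and both further GAPDH probe sets passed at 0.072 and 0.070. The kinase PGK1 changed by 0.062 without passing (limma adjusted p = 0.193), while 2 of its 3 further probe sets rose by 0.27 and 0.13. The isomerase GPI and the neuronal enolase ENO2 changed by 0.051 and 0.11 and did not pass.

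Of the 4 measured regulators of glycolytic flux, 1 rose and 1 fell. PFKFB3, which makes the sugar bisphosphate that activates phosphofructokinase, rose by 0.18 (SE 0.055, limma adjusted p = 0.0232). PDK1, a kinase that keeps pyruvate out of the mitochondrial dehydrogenase, read 7.10, 7.27 and 7.31 with HDAC5 shRNA and 7.41, 7.47 and 7.42 with scramble. It fell by 0.21 on the log2 scale (SE 0.068, limma adjusted p = 0.0307), with no overlap. For PDK3, a kinase of the same family, the probe sets disagreed: the one with the highest mean changed by 0.038 and did not pass, and its 2 further probe sets rose by 0.67 and 0.90. PFKFB4, a relative of PFKFB3, changed by 0.058 and did not pass.

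The HIF subunits and their feedback genes held the largest changes of the gene set. EPAS1, the alpha subunit also called HIF-2 alpha, read 9.85, 9.89 and 9.83 with HDAC5 shRNA against 10.41, 10.49 and 10.50 with scramble. It fell by 0.61 on the log2 scale (SE 0.041, limma adjusted p = 1.25e-06), a gap of many times the spread within either group. Its further probe set, which is dim at a mean of 4.43, changed by -0.12 without passing. Averaged over both probe sets, EPAS1 fell by 0.36 on the log2 scale (limma adjusted p = 0.000535). HIF1A, the other alpha subunit, read 12.87, 12.94 and 12.91 with HDAC5 shRNA and 13.01, 12.99 and 13.15 with scramble. The groups did not overlap, but the fall was small at 0.14 on the log2 scale (SE 0.042, limma adjusted p = 0.0187). Without scramble replicate 3 the change of HIF1A was -0.093 and passed. ARNT, their common partner, had 7.67, 7.85 and 7.82 with HDAC5 shRNA and 7.66, 7.73 and 7.59 with scramble. Its change of 0.12 did not pass, and the groups overlapped (limma adjusted p = 0.193).

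MXI1, a MYC antagonist and HIF target, showed the largest change of all 34 genes. Its signal was 10.32, 10.38 and 10.37 with HDAC5 shRNA, against 11.38, 11.41 and 11.33 with scramble. It fell by 1.02 on the log2 scale (SE 0.038, limma adjusted p = 3.14e-08), a 2.02-fold lower level, while the SD within each group stayed under 0.040. BHLHE40, a transcriptional repressor induced by hypoxia, averaged 10.88 ± 0.098 with HDAC5 shRNA and 11.36 ± 0.038 with scramble (SD, n = 3 each) and fell by 0.48 on the log2 scale (limma adjusted p = 2.61e-05). EGLN1, the oxygen-sensing hydroxylase and itself a HIF target, went the other way: it read 7.87, 8.07 and 8.12 with HDAC5 shRNA and 7.39, 7.44 and 7.49 with scramble. EGLN1 rose by 0.58 (SE 0.072, limma adjusted p = 9.46e-05), with all HDAC5 shRNA arrays above all scramble arrays.

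The sequences around the starts of 5 members are shown as examples, picked after their values were seen, of genes that rose (LDHA, PGAM1 and EGLN1) and of genes that fell (ALDOC and MXI1) with HDAC5 shRNA. They are RefSeq windows of GRCh38.p14, from 250 bases before the start to 50 after it, 300 bases each, 5′ to 3′ on the gene's strand. The hypoxia response element core was searched as ACGTG and GCGTG on both strands, so the reverse forms CACGT and CACGC count too, and capitals mark the matches, with overlapping matches joined into 1. LDHA lies at chr11:18394313-18394612 on the plus strand, PGAM1 at chr10:97427568-97427867 on the plus strand, EGLN1 at chr1:231422238-231422537 on the minus strand, ALDOC at chr17:28576846-28577145 on the minus strand and MXI1 at chr10:110209981-110210280 on the plus strand. LDHA and MXI1 have several windows. The LDHA window with the most matches is shown, and of the MXI1 windows tied for the most the one with the lower coordinate.
LDHA: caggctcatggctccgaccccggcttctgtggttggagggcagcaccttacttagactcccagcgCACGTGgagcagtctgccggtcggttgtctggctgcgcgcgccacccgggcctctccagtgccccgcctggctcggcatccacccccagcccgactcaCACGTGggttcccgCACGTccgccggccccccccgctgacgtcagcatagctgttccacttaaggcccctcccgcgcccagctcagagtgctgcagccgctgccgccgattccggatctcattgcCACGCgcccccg
PGAM1: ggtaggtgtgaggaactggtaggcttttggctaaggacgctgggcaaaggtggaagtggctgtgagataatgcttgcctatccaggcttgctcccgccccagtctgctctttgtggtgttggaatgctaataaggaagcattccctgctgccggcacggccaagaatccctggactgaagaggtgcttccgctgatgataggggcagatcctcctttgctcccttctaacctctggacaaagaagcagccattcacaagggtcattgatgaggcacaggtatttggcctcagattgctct
EGLN1: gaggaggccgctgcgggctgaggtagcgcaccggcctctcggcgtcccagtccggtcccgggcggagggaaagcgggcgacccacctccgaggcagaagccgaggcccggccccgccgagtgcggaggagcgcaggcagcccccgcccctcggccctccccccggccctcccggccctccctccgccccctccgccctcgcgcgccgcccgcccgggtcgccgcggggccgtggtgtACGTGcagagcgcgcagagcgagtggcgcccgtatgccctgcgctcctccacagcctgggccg
ALDOC: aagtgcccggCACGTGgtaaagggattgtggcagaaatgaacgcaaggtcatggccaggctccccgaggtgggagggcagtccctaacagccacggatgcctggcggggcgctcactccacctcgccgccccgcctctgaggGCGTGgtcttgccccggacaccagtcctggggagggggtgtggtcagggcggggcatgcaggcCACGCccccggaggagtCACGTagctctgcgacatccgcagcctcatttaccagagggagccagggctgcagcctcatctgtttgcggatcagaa
MXI1: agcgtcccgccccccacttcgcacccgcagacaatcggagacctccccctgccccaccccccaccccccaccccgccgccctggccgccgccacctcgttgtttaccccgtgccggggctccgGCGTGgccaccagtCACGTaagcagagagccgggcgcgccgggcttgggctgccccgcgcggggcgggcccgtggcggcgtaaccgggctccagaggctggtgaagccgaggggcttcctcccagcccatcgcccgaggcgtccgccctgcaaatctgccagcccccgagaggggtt

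The windows of LDHA and ALDOC held 4 matches each, that of MXI1 held 2 and that of EGLN1 held 1, while that of PGAM1 held 0. LDHA rose and ALDOC fell with the same number of matches, and both windows contain the palindrome CACGTG, in which the core reads on both strands. A window was listed for 32 of the 34 members, 50 windows in all, and 36 of them held a match (72.0%), compared with 48.4% of all 35116 windows and 56.7% of the 14058 windows of genes on the array. Member windows were also richer in CG dinucleotides, with a median of 28.5 against 22 for genes on the array, and the core contains such a dinucleotide. The 1 window listed for PGAM1 held only 5 CG dinucleotides, and no other start of that gene was searched. By direction with HDAC5 shRNA, 13 of 15 windows of genes that rose held a match, 11 of 16 of genes that fell and 12 of 19 of genes that did not pass. Some genes have several windows. Counted by gene, at least 1 window held a match for 9 of 10 genes that rose and 9 of 9 that fell. The same held for 11 of 13 genes that did not pass, beside 65.6% of genes on the array. A match describes letters and not binding.

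Among the other HIF targets, NDRG1, a stress-response gene that limits metastasis in some settings, read 9.83, 9.93 and 10.03 with HDAC5 shRNA and 10.58, 10.45 and 10.32 with scramble. It fell by 0.52 on the log2 scale (SE 0.069, limma adjusted p = 0.000142) with no overlap. BNIP3L, a mitophagy receptor, fell by 0.29 on the log2 scale (limma adjusted p = 0.000927), but its further probe set changed by 0.073 in the opposite direction without passing, and their mean changed by -0.11 and did not pass (limma adjusted p = 0.063). Its relative BNIP3 changed by -0.13 and did not pass (limma adjusted p = 0.077). CA12, a membrane carbonic anhydrase that helps to set pH outside the cell, fell by 0.27 on the log2 scale (limma adjusted p = 0.00213). The secreted peptide adrenomedullin, ADM, changed by 0.14 and did not pass (limma adjusted p = 0.0784).

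The 4 collagen hydroxylases, which modify proline or lysine in newly made collagen, were divided. PLOD2 fell by 0.31 on the log2 scale (SE 0.048, limma adjusted p = 0.000468), and its further probe set also passed. PLOD1 rose by 0.20 (SE 0.070, limma adjusted p = 0.0424), although its HDAC5 shRNA arrays, at 8.46, 8.56 and 8.51, touched the range of its scramble arrays, at 8.46, 8.21 and 8.26. P4HA1 changed by -0.090 and P4HA2 by 0.16, and neither passed (limma adjusted p = 0.251 and 0.050008).

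The median change of the 12 HIF targets was -0.20. HDAC5 shRNA and scramble arrays were fully separate for 22 of the 34 members, 11 up and 11 down, beside 50.8% of all genes (24.1% up and 26.6% down). The further probe sets of the genes that passed numbered 16, for 10 genes: 14 had the same sign, 10 of these passed and 0 passed with the opposite sign. Within groups, 4 of the 34 members lay above their mean on HDAC5 shRNA replicate 1, beside 24 and 26 on replicates 2 and 3, and 9 did so on scramble replicate 3, beside 23 and 18 on replicates 1 and 2. The median deviation over all genes was -0.0013 on HDAC5 shRNA replicate 1 and -0.018 on scramble replicate 3. The share of all genes above their mean was not counted. Calls near the threshold were lost when 1 array was left out. Fewer genes of all passed in those fits too, 4563 to 5046 in place of 5319. PLOD1 no longer passed without any 1 of 5 arrays (all but scramble replicate 1), LDHB without any 1 of 4 (scramble replicate 1 or 3, HDAC5 shRNA replicate 1 or 3), PDK1 without any 1 of 5 (all but HDAC5 shRNA replicate 3), PFKFB3 without scramble replicate 1 or 2 or HDAC5 shRNA replicate 2 or 3, and HIF1A without HDAC5 shRNA replicate 1 or 3. Their limma adjusted p in those fits ran from 0.0512 (PDK1 without HDAC5 shRNA replicate 2, at -0.23) to 0.162 (PLOD1 without scramble replicate 2, at 0.15). In the other direction, ADM passed at 0.18 without scramble replicate 1, P4HA2 at 0.22 without scramble replicate 2, ENO2 at 0.19 without HDAC5 shRNA replicate 1, and GAPDH at 0.074 and BNIP3 at -0.17 without HDAC5 shRNA replicate 2.

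In 1 fit of all 12 arrays, where the error includes the wider spread of the LSD1 experiment, several of these calls were lost at the same change. They were those of NDRG1, BHLHE40, CA12, BNIP3L and ALDOC (limma adjusted p = 0.164, 0.36, 0.387, 0.453 and 0.537) and of PDK1, PFKFB3, PLOD1 and HIF1A (limma adjusted p = 0.106, 0.112, 0.135 and 0.162). MXI1, EPAS1, EGLN1, PLOD2 and 8 enzymes (PKM, PGAM1, LDHA, LDHB, TPI1, ALDOA, ENO1 and PFKP) passed in that fit too. As a measure of RNA quality, the signal at the 3′ end of ACTB minus that at its 5′ end averaged 0.68 ± 0.078 with HDAC5 shRNA and 0.90 ± 0.059 with scramble (SD, n = 3 each, exact two-sided permutation p = 0.1, the smallest that 3 against 3 allows). The same measure of GAPDH overlapped between the groups (exact two-sided permutation p = 0.2). The part of RNA quality in these changes was not tested.

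**Figure D2:**
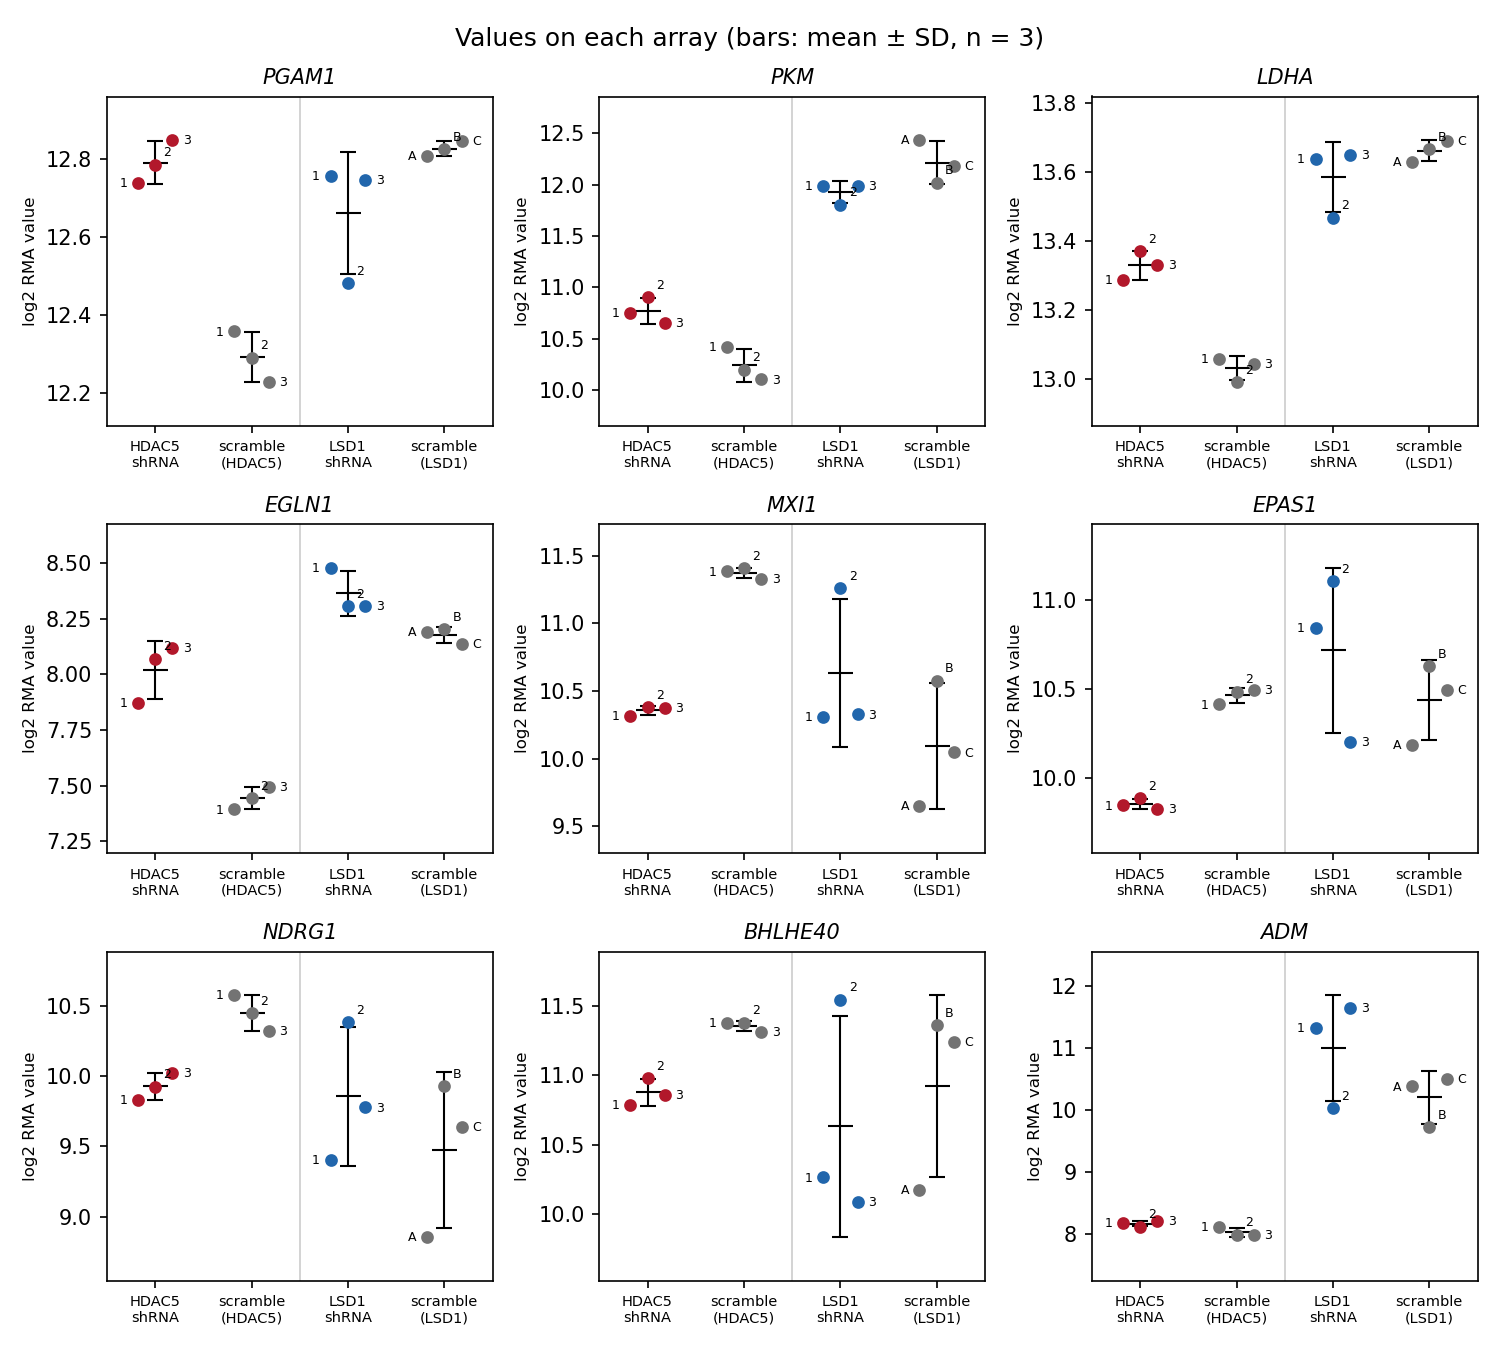
Log2 signal (y axis) of 9 genes on each array, with one panel per gene and, from left to right, HDAC5 shRNA, its scramble, LSD1 shRNA and its scramble; points are arrays with their replicate number or letter, and bars are the mean and SD of 3. MXI1, EPAS1 and NDRG1 are tight and separate in the HDAC5 experiment and widely spread in the LSD1 experiment, and levels are not compared across experiments.

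With LSD1 shRNA 0 of the 34 genes passed the test. Over all genes 4.92% passed, 2.93% up and 2% down, which leaves 0 of 34 near the background. At an unadjusted limma p under 0.05 there were 7 members, beside 22% of all genes. The median change was -0.036 over the members and 0.0069 over all genes. LSD1 shRNA and scramble arrays were fully separate for 11 members, 3 higher and 8 lower with LSD1 shRNA, beside 27% of all genes (14.3% higher and 12.7% lower). The SEs of the members ran up to 0.46 with a median of 0.10, compared with at most 0.084 and a median of 0.051 in the HDAC5 experiment. For BHLHE40 the SE of 0.46 was close in size to its change of -0.48 with HDAC5 shRNA. For LDHA, PGAM1 and EGLN1 the SEs were 0.054, 0.078 and 0.091, well below their changes of 0.30, 0.50 and 0.58 with HDAC5 shRNA. The smallest detectable change was not computed.

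LSD1 shRNA replicate 2 was the highest of its group for 17 of the 34 members and the lowest for 13, beside 36.2% and 43.9% of all genes. Scramble replicate B was the highest for 23 members and the lowest for 3, beside 32.2% and 35.8% of all genes. Of the 34 members, 14 were highest of their group on both arrays (41.2%, beside 20.9% of all genes), and they included MXI1, EPAS1, NDRG1, BHLHE40, BNIP3L, CA12, PLOD2 and ALDOC. PKM, PFKFB4 and ADM were lowest of their group on both, which is 8.82% of the members beside 23.2% of all genes. Of the 12 HIF targets, 9 lay above their group mean on LSD1 shRNA replicate 2 and 11 on scramble replicate B. Their median deviations on these 2 arrays were 0.21 and 0.17, beside -0.016 and -0.0062 over all genes. The labels number the LSD1 shRNA replicates and letter the scramble ones, so nothing pairs these arrays. Without both of them 116 genes of all passed in place of 589, and still 0 members did. The 3′ minus 5′ signal of ACTB averaged 1.43 ± 0.12 with LSD1 shRNA and 1.30 ± 0.063 with scramble (SD, n = 3 each, exact two-sided permutation p = 0.2). That of GAPDH averaged 0.042 ± 0.029 with LSD1 shRNA and 0.0015 ± 0.0080 with scramble without overlap (exact two-sided permutation p = 0.1, the smallest possible). The part of either in these values was not tested.

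**Figure D3:**
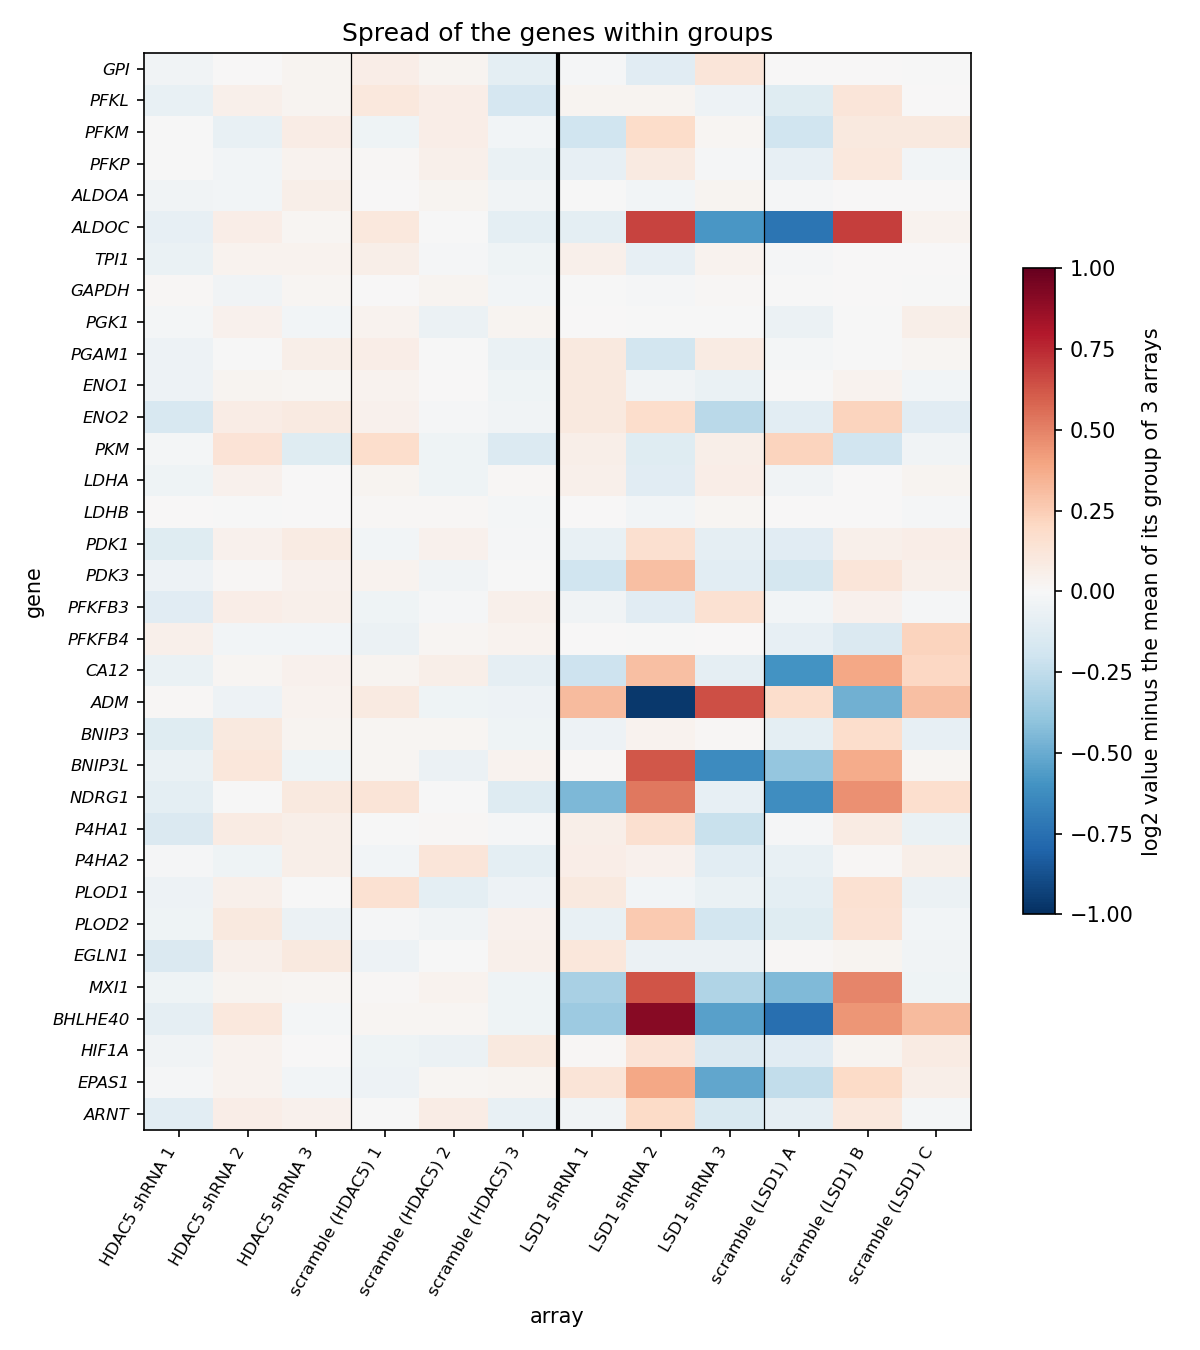
Log2 value minus the mean of its group of 3 (colour) for the 34 genes (rows, by role) on each of the 12 arrays (columns). LSD1 shRNA replicate 2 and scramble replicate B share a block of high HIF targets and low ADM, and deviations in the HDAC5 experiment are smaller.

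MXI1 shows the pattern: it read 10.31, 11.26 and 10.33 with LSD1 shRNA and 9.65, 10.58 and 10.05 with scramble A, B and C. The high array of each group is the same pair, and the change of 0.54 had a 95% interval from -0.23 to 1.31. EPAS1 read 10.84, 11.11 and 10.20 with LSD1 shRNA and 10.19, 10.63 and 10.50 with scramble, a change of 0.28 with overlapping groups (95% interval -0.29 to 0.85). NDRG1 read 9.41, 10.38 and 9.78 with LSD1 shRNA and 8.86, 9.93 and 9.64 with scramble, again overlapping, with a change of 0.38. The median SD within a group over the members was 0.14 for LSD1 shRNA and 0.11 for its scramble, close to the 0.13 and 0.11 over all genes, so the wide spread belongs to a subset of them.

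HIF1A and ARNT varied less between arrays than MXI1. HIF1A read 13.15, 13.27 and 12.99 with LSD1 shRNA and 13.07, 13.21 and 13.26 with scramble, and changed by -0.045 (95% interval -0.24 to 0.15). ARNT read 7.64, 7.87 and 7.53 with LSD1 shRNA and 7.80, 7.99 and 7.87 with scramble, and changed by -0.21 (95% interval -0.48 to 0.069). Both groups overlapped for each gene. LDHA had 13.64, 13.47 and 13.65 with LSD1 shRNA and 13.63, 13.67 and 13.69 with scramble, a change of -0.077 with an interval from -0.20 to 0.050. GAPDH had 13.97, 13.96 and 13.98 with LSD1 shRNA and 14.01, 14.01 and 13.9999 with scramble. These groups did not overlap, but the gap of -0.034 did not pass (limma adjusted p = 0.464). Array maxima were 14.27 to 14.33 in this experiment, so LDHA and GAPDH lie near the top of the range, where differences can be understated. PDK1 read 6.73, 6.96 and 6.71 with LSD1 shRNA and 6.85, 7.02 and 7.03 with scramble, and its change of -0.17 did not pass (limma adjusted p = 0.395).

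The enzymes and the hydroxylase that rose with HDAC5 shRNA gave smaller changes here. PKM read 11.99, 11.80 and 11.99 with LSD1 shRNA and 12.43, 12.02 and 12.18 with scramble, a change of -0.28 that did not pass (SE 0.11, limma adjusted p = 0.21). PGAM1 read 12.76, 12.48 and 12.75 with LSD1 shRNA and 12.81, 12.82 and 12.85 with scramble, and its change of -0.17 did not pass (SE 0.078, limma adjusted p = 0.28). In both genes LSD1 shRNA replicate 2 was the lowest of all 6 arrays, and no LSD1 shRNA array reached a scramble array. EGLN1 read 8.48, 8.31 and 8.31 with LSD1 shRNA and 8.19, 8.20 and 8.14 with scramble, again without overlap, and changed by 0.19 without passing (limma adjusted p = 0.295). BHLHE40 read 10.27, 11.55 and 10.09 with LSD1 shRNA and 10.17, 11.36 and 11.24 with scramble, a spread of over 1 log2 unit within each group.

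BNIP3, the mitophagy receptor, came nearest to the threshold. It read 11.62, 11.71 and 11.69 with LSD1 shRNA and 11.93, 12.21 and 11.95 with scramble, which do not overlap, and its change was -0.36 (SE 0.086, limma adjusted p = 0.0675). Its further probe set fell by 0.50 on the log2 scale and passed (limma adjusted p = 0.0371 over the 19064 probe sets). ADM had the largest change, and the widest spread of the members within the LSD1 shRNA group: 11.32, 10.04 and 11.65 with LSD1 shRNA and 10.38, 9.73 and 10.51 with scramble. Its change of 0.80 did not pass (SE 0.42, limma adjusted p = 0.339, 95% interval -0.21 to 1.80). Without LSD1 shRNA replicate 2 it was 1.28 and passed (limma adjusted p = 0.0404), and without that array and scramble replicate B it was 1.04 and did not (limma adjusted p = 0.0663). PFKP changed by -0.26 and PDK3 by 0.41, each with groups that did not overlap and neither passing (limma adjusted p = 0.103 and 0.191).

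The changes with the 2 shRNAs were then set against each other in 1 fit of all 12 arrays; the comparisons have no array in common. The difference, HDAC5 shRNA change minus LSD1 shRNA change, passed for 12 of the 34 genes, 10 positive and 2 negative. Of all genes 31.8% passed, 15.7% positive and 16.1% negative. Among members with a mean of at least 10 it passed for 10 of 21 (47.6%), beside 48.8% of all genes that bright. Of the 15 enzymes 7 passed, each positive. A mean of at least 10 was reached by 12 of the 15, and the share of genes that bright was not split by direction. The largest was PKM, at 0.81 (SE 0.16, limma adjusted p = 0.00235): it changed by 0.53 with HDAC5 shRNA and by -0.28 with LSD1 shRNA. PGAM1 differed by 0.66 (SE 0.093, limma adjusted p = 0.000312), with changes of 0.50 and -0.17. LDHA differed by 0.38 (SE 0.064, limma adjusted p = 0.001), with changes of 0.30 and -0.077. Its signal lies near the top of the range in both experiments, where differences can be understated. The LSD1 shRNA changes of these 3 enzymes did not pass on their own.

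Among the other members, EGLN1, PFKFB3 and P4HA2 differed by 0.39, 0.41 and 0.38 (limma adjusted p = 0.024, 0.0154 and 0.0181). MXI1 and EPAS1 differed in the negative direction, by -1.56 and -0.89 (SE 0.35 and 0.26, limma adjusted p = 0.00498 and 0.0195). The SE of MXI1 was 0.038 with HDAC5 shRNA and 0.32 with LSD1 shRNA, and that of EPAS1 was 0.041 and 0.24. The contrast pools this unlike spread into 1 error, so these 2 p-values may be too small. PFKP, with a change of -0.26 in each experiment, passed with HDAC5 shRNA and not with LSD1 shRNA, and the difference between those changes was -8.33e-05 (SE 0.082). NDRG1 differed by -0.90 and did not pass (SE 0.37, limma adjusted p = 0.0835), but it passed at -1.13 without scramble replicate B and at -1.13 without LSD1 shRNA replicate 1. ADM differed by -0.65 and did not pass (limma adjusted p = 0.327), and it passed at -1.14 without LSD1 shRNA replicate 2. BHLHE40 and ADM had SEs of 0.49 and 0.46 in this contrast.

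Other genes of the same pathways, not among the 37, were counted from a list of glycolysis genes and a list of HIF pathway genes. Of 29 measured glycolysis genes, 11 rose and 3 fell with HDAC5 shRNA (48.3%, near the 44.5% of all genes), and 0 passed with LSD1 shRNA. The largest changes with HDAC5 shRNA were those of the glucose transporter SLC2A3 at -0.89, the mitochondrial glycerol phosphate dehydrogenase GPD2 at 0.83 and TIGAR, a phosphatase that lowers glycolytic flux, at 0.52 (limma adjusted p = 1.15e-05, 0.00036 and 1.09e-05). Of 25 measured HIF pathway genes, 4 rose and 10 fell with HDAC5 shRNA (56%, beside 44.5% of all genes, of which 21.3% rose and 23.2% fell), led by DDIT4, an inhibitor of mTOR signalling, at -2.19, the growth factor VEGFA at -1.16 and the lipoprotein receptor VLDLR at -1.03. With LSD1 shRNA 1 of the 25 passed (4%, beside 4.92% of all genes): ERO1A, an oxidase of the endoplasmic reticulum, averaged 9.58 ± 0.15 with LSD1 shRNA and 10.73 ± 0.14 with scramble (SD, n = 3 each) and fell by 1.15 on the log2 scale (SE 0.12, limma adjusted p = 0.00482). The median change of the HIF pathway genes was -0.090 with HDAC5 shRNA and 0.0028 with LSD1 shRNA.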

How the data were processed

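Each of the 12 samples has 1 array and 1 column of log2 values, which the authors made with RMA in the affy package and deposited, per the submitters' processing notes; no version is stated there. RMA subtracts background, quantile-normalizes the arrays run together and combines the probes of a set. It therefore hides shifts common to most genes and shrinks changes of dim ones. Of 22277 probe sets, 62 controls were left out of the gene tests, and 1043 with several symbols and 2108 with none were not used. The 19064 with 1 symbol were named from the platform annotation and updated through RefSeq (GRCh38.p14), which matched 19052. Probe sets whose names end in _x_at or _s_at can match related genes. Many members were read from such probe sets, among them GAPDH, ALDOA, LDHB, EGLN1 and CA12 (_x_at). PGAM1, LDHA, TPI1, ENO1, NDRG1, PLOD2 and BHLHE40 (_s_at) were too.

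Each shRNA was compared with its own scramble arrays in a fit of 6 arrays (limma 3.58.1 in R 4.3.3, lmFit and eBayes with a mean-variance trend), and the difference of the changes was a contrast in a fit of all 12. The p-values were adjusted over 11963 genes. Further probe sets were tested over the 19064. The untagged scramble arrays were assigned to HDAC5 shRNA since only the other scramble set is tagged LSD1. The scripts were tested on simulated data. The alternatives were 1 fit for both comparisons, no trend, averaging the probe sets of a gene, leaving out dim genes, quantile normalization, centring, the replicate block and leaving out each array. Promoter windows came from RefSeq with 32 of 34 members matched.

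The members and lists were chosen with earlier results of these data known. Values on every array are given for genes that passed with a change of at least 0.5 and for HIF1A, EPAS1, ARNT, LDHA, GAPDH and PDK1; PGAM1, ALDOC, PLOD1, BNIP3 and ADM, and PKM, EGLN1, NDRG1, MXI1 and BHLHE40 in the LSD1 experiment, were added after their values were seen. The number of arrays limits the precision.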

Additional observations from a re-analysis of the deposited data

Results flagged for a closer look

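For 12 of the 34 genes the change with HDAC5 shRNA differed from the change with LSD1 shRNA in a limma test of the difference over all 12 arrays. Among the enzymes the difference (HDAC5 shRNA change minus LSD1 shRNA change, log2) was 0.81 for PKM, 0.66 for PGAM1, 0.38 for LDHA, 0.26 for TPI1, 0.19 for ALDOA, 0.19 for ENO1 and 0.092 for GAPDH. Outside the enzymes it was 0.41 for PFKFB3, 0.39 for EGLN1, 0.38 for P4HA2, -0.89 for EPAS1 and -1.56 for MXI1. GAPDH and ENO1 were the least secure. GAPDH passed only narrowly (limma adjusted p = 0.0442) and no longer did without any 1 of 9 arrays. Its signal also lies near the top of the range in both experiments. ENO1 (limma adjusted p = 0.039) no longer passed without any 1 of 8 arrays, and it was at 0.071 with an adjusted p of 0.731 when its probe sets were averaged. EGLN1 no longer passed without any 1 of 4 arrays of the HDAC5 experiment (limma adjusted p = 0.0512 to 0.0657). The 12 genes are 35.3% of the members, beside 31.8% of all genes.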

How the results depend on the processing

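Of the 21 genes called with HDAC5 shRNA, 11 passed under each of the 13 alternatives (ALDOA, EGLN1, ENO1, EPAS1, LDHA, MXI1, PFKP, PGAM1, PKM, PLOD2 and TPI1), 10 lost the call under at least 1, and no sign turned. In 1 fit of all 12 arrays the wide spread of the LSD1 experiment and the narrower spread of the HDAC5 experiment enter the same error. With HDAC5 shRNA 7 enzymes rose and 1 fell, 1 other member rose and 3 fell, and 3512 genes of all passed. With LSD1 shRNA 1 enzyme fell (PFKP), 1 other member rose (PDK3), 1 fell (BNIP3) and 2297 genes of all passed. Other members that rose with HDAC5 shRNA numbered 5 with probe sets averaged and 5 with arrays centred, and 1 to 3 when 1 array was left out. With probe sets averaged or arrays centred 1 other member, BNIP3, fell with LSD1 shRNA. Leaving out 1 array moved the genes of all that passed with LSD1 shRNA to between 104 and 786 and its other members up to between 0 and 1. Without scramble array B and LSD1 shRNA array 2 together, an alternative chosen after seeing the data, 116 passed. For the difference between the shRNAs, 4 enzymes were positive with no trend and 4 with quantile normalization, 5 other members were positive with arrays centred, and 2 to 4 other members were negative when 1 array was left out. The causes of these moves were not tested. The labels do not say whether the replicate numbers pair the arrays of the HDAC5 experiment. Correlations of same-numbered deviations were -0.052, -0.21 and -0.15, and those of unlike-numbered ones ran from -0.0039 to 0.16. Deviations from a mean of 3 arrays depend on each other, so these correlations cannot decide it. With the replicate block 6 enzymes rose and 2 fell, 2 other members rose and 9 fell, and 4869 genes of all passed. No paired analysis was possible in the LSD1 experiment because its scramble arrays carry letters.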

Other observations

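Differences between paralogs on the same array removed what an array shared. LDHA minus LDHB changed by 0.22 with HDAC5 shRNA and by -0.13 with LSD1 shRNA, and the groups did not overlap in either experiment. ALDOA minus ALDOC changed by 0.49, PLOD1 minus PLOD2 by 0.50 and HIF1A minus EPAS1 by 0.47 with HDAC5 shRNA, each without overlap, whereas the LSD1 shRNA and scramble arrays overlapped for all 3 pairs. PFKP minus PFKM changed by -0.29 with HDAC5 shRNA and by -0.44 with LSD1 shRNA, without overlap in either. Each of these non-overlapping pairs has an exact two-sided permutation p of 0.1, the smallest that 3 arrays against 3 allow, and over the 10 pairs tested it adjusts to 0.125 with HDAC5 shRNA and 0.25 with LSD1 shRNA, so none passed.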
